A study of Mus musculus with 4 samples.

Results

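The genes examined here encode the transporters, buffers, chaperones and enzymes that handle zinc, copper and manganese in liver tumours of mice. They were the protein-coding genes of the ZnT (Slc30a) and ZIP (Slc39a) zinc transporter families, without Slc39a8 and Slc39a14, together with Mt1, Mt2, Mtf1, Atp7a, Atp7b, Slc31a1, Slc31a2, Atox1, Ccs, Cp and Heph. This rule found 33 of the 55487 genes in the deposited count table. Of these, 30 had enough counts to be tested, and Slc30a4, Slc30a8 and Slc39a12 did not.

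Bulk tissue of hepatocellular carcinoma was sequenced from 4 mice of an Alb-cre H11-myc line, in which c-Myc drives spontaneous liver tumours. The labels give 2 animals as wild type and 2 as knockout for Tfrc, which encodes transferrin receptor 1, the uptake route for iron carried by transferrin. Albumin-driven Cre acts in cells of the hepatocyte lineage, so stromal, endothelial and immune cells of the tumour are not its targets. The age of the animals and the deleted exons are not given in the sources used here, nor are the Cre and Myc alleles of each single animal. The series asked how Tfrc acts on the tumour microenvironment. In bulk tissue, fewer cells of a type and less RNA per cell cannot be told apart.

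Tfrc itself did not check the labels. It had 8441 and 3603 counts in wild type animals 1 and 2, against 5407 and 3244 in knockout animals 1 and 2, so the groups overlapped (log2 fold change -0.37, SE 0.45; 0.16 without wild type 1). Each direction given for the knockout is therefore that of the libraries labelled knockout. Total counts ran from 15918349 to 17052943 per library. Wild type 2 stood apart on the first principal component (86.6, against -11.2 for wild type 1 and -37 and -38.5 for the knockout animals), and the share of mitochondrial transcripts ran from 4.13% in wild type 2 to 16.63% in knockout 2. Alb, the main secreted hepatocyte protein, had 5376 and 29461 CPM in wild type and 21874 and 16813 CPM in knockout (CPM, library-size-normalised counts scaled by TMM), so the tissue carried the defining hepatocyte transcript at very unequal levels.

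Zinc enters the cytosol through ZIP proteins and leaves it, into vesicles or out of the cell, through ZnT proteins. Surplus zinc and copper are held by metallothioneins, whose genes the zinc-sensing transcription factor MTF1 switches on. Copper enters through CTR1 (Slc31a1), is passed by the chaperones Atox1 and Ccs to its targets, and is pumped by Atp7a or, in hepatocytes, by Atp7b into bile and onto the secreted ferroxidase ceruloplasmin (Cp). Hepatocytes also clear manganese, through the exporter Slc30a10.

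No metal-handling gene passed the test across all genes. Of the 30 tested members, 0 were higher and 0 lower in the knockout by edgeR's quasi-likelihood test at an adjusted p of 0.05. Over all 16310 tested genes 0 were called as well (0%), and the lowest adjusted p was 0.0595. Before adjustment, 4 members had a p under 0.05 (background 8.3%). Atp7b and Slc39a2 were the 2 higher ones (background 3.95%), and Slc39a4 and Slc39a9 the 2 lower ones (background 4.35%). DESeq2 called 1 member lower, Slc39a4, where 0.521% of all tested genes were called lower, and 0 higher, where 0.386% were (0.907% in either direction). By limma-voom 0 members were called, in a background of 0.00613%, all lower. The knockout libraries lay above both wild type libraries for 3 members (background 21.9%) and below both for 7 (background 20.1%), or 10 of 30 in either direction (background 42%). Fitted changes were small for most: 25 of 30 members had a log2 fold change under 0.5 in size, against 60.2% of all tested genes, and the members' median was -0.11 against 0.01. A fitted fold of at least 2 in either direction was seen for 5 members (background 13.1%). The wild type animals were at least 2-fold apart for 10 of the 30 members (background 24.9%), and at least 4-fold for 5 (background 6.56%). The knockout animals were at least 2-fold apart for 2 (background 13%).

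**Figure D1:**
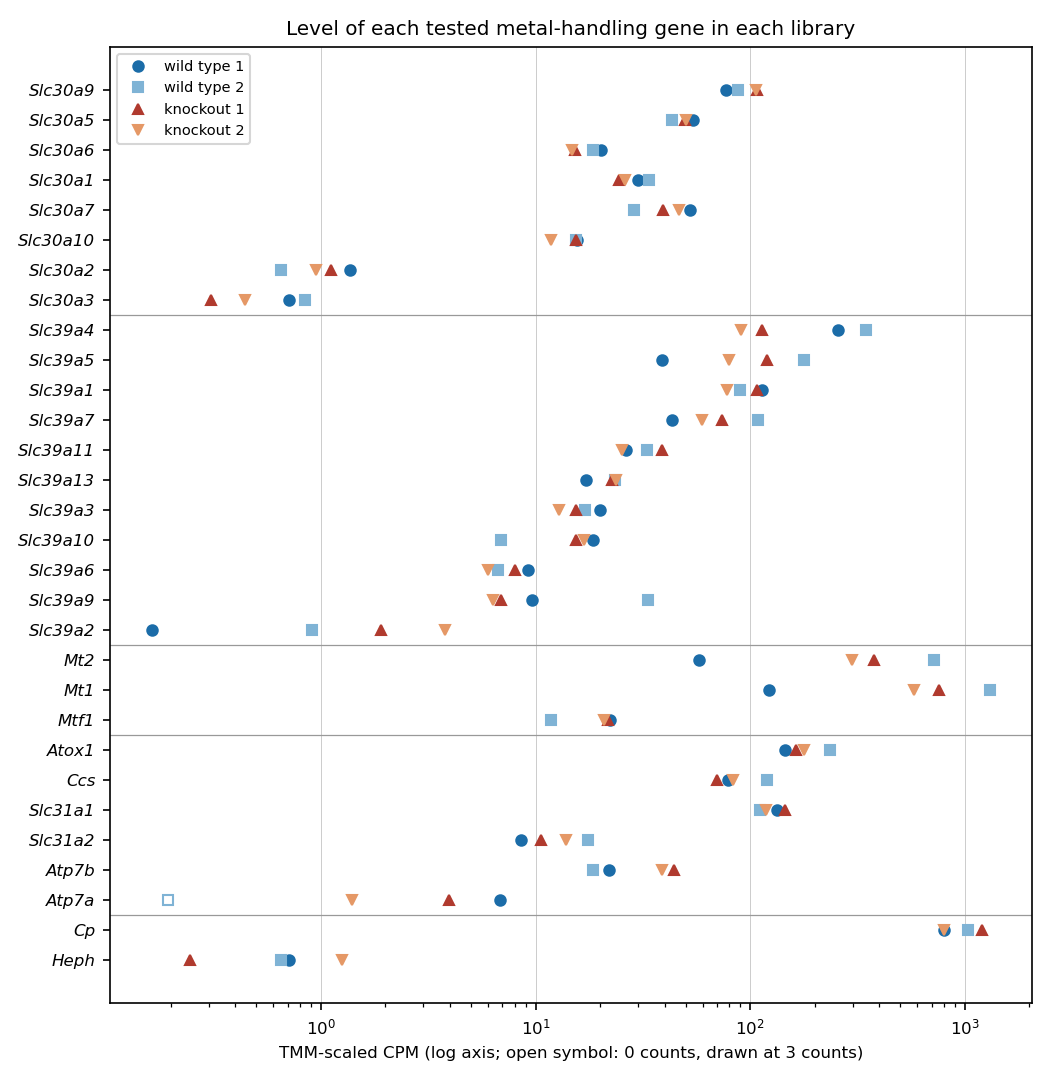
TMM-scaled CPM on a log axis for the 30 tested genes in each of the 4 libraries, grouped from top to bottom as zinc exporters, zinc importers, metallothioneins with Mtf1, copper import, chaperones and pumps, and ferroxidases. The knockout symbols lie apart from the wild type symbols for Slc39a4 and Atp7b, while for Mt1 and Mt2 the wild type animals mark the lowest and the highest library; an open symbol stands for a library with 0 counts, drawn at the level of 3 counts.

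**Figure D2:**
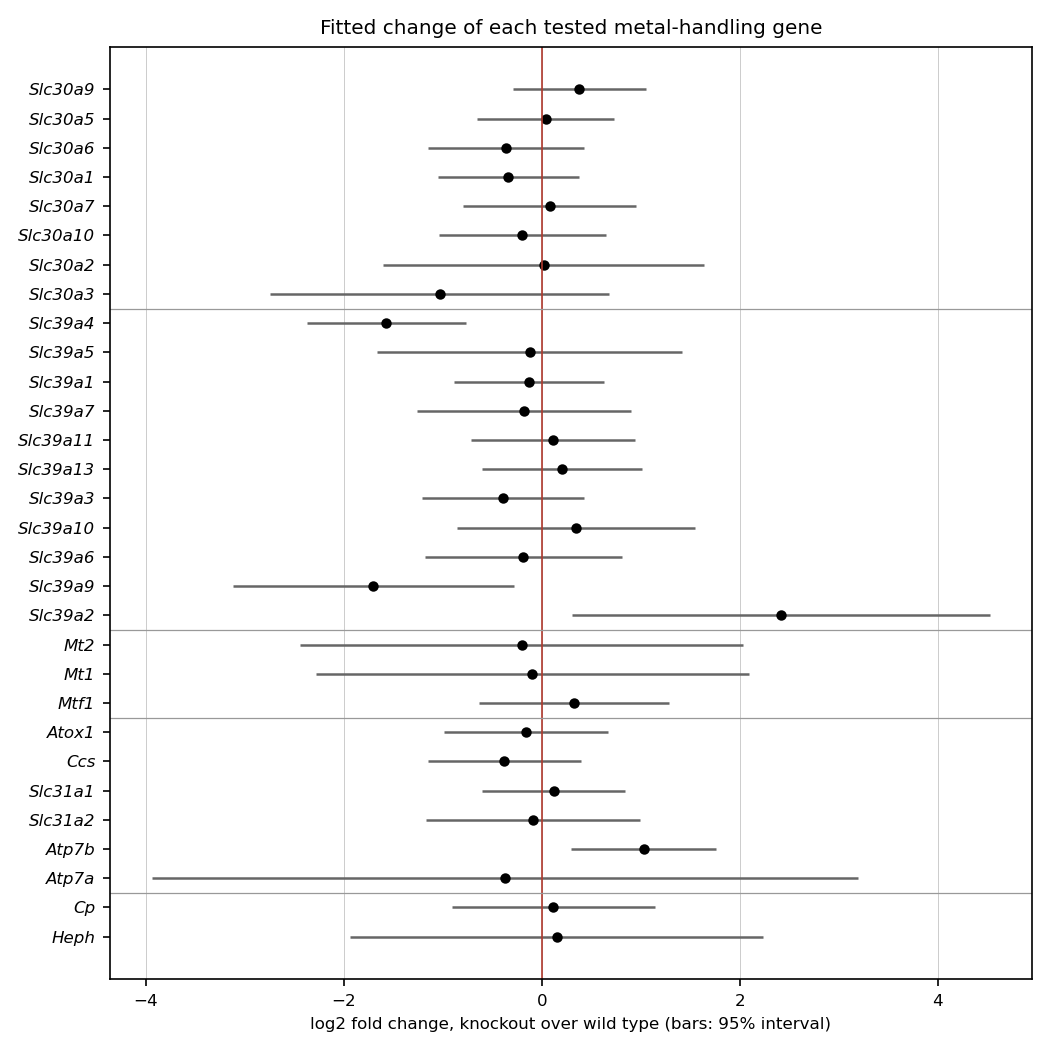
Log2 fold change of the knockout over the wild type libraries for the same 30 genes, with 95% intervals from the edgeR fit (n = 2 libraries a group). The interval includes 0 for 26 genes and lies clear of it for Slc39a4 and Slc39a9 on the lower side and Atp7b and Slc39a2 on the higher side, none of which passed after adjustment.

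Among the zinc importers, Slc39a4 had the smallest p. It encodes ZIP4, the transporter of dietary zinc whose loss causes acrodermatitis enteropathica in humans, and it was the best expressed ZIP gene per length in the wild type tumours. The gene (ENSMUSG00000063354, chromosome 15, 76612383 to 76617384, mm10) had 4717 and 5303 counts in wild type animals 1 and 2, and 1825 and 1431 counts in knockout animals 1 and 2. Both wild type libraries were high and both knockout libraries low, with no overlap. In CPM this was 301 ± 62 in wild type and 101 ± 15.8 in knockout (SD, n = 2 each), a 2.97-fold lower fitted level (log2 fold change -1.57, SE 0.34, 95% interval -2.37 to -0.76). It ranked 67 of 16310 genes by p, and its edgeR adjusted p was 0.545, so it did not pass. DESeq2 gave an adjusted p of 0.00511, limma-voom 0.505, and edgeR without wild type 1 gave 0.028. Without the other libraries in turn the edgeR adjusted p ran from 0.125 to 1. No annotated gene overlaps its span.

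Slc39a4 is known from intestinal epithelium, and 1 of the markers of that tissue, Vil1, was lower alongside it. Vil1, the microvillus protein villin, stood at 194 and 132 CPM in wild type against 5.37 and 9.78 CPM in knockout (fitted log2 fold change -4.42). The 8 intestinal markers together had 262 and 268 CPM in wild type and 74 and 88.6 CPM in knockout. Most of that difference was Vil1. Of the 4 tested, Vil1 was the only one lower in both knockout libraries. Fabp2 (67.5 and 127 against 66.4 and 77.1 CPM) and Cdh17 (0.871 and 8.58 against 1.42 and 0.378 CPM) overlapped between the groups, and Lgr5, named after its values were seen, was higher in both knockout libraries. Cdx2 and Sis had 0 counts in every library. Their part in the Slc39a4 values was not tested.

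Slc39a9 and Slc39a2 also had an unadjusted p under 0.05. Slc39a9, a ZIP protein of the Golgi, had 177 and 514 counts in wild type against 112 and 100 in knockout, and wild type 2 alone was high. Its log2 fold change of -1.70 (SE 0.60, edgeR adjusted p = 0.569) was -0.54 without wild type 2 and -2.37, with an adjusted p of 0.0186, without wild type 1. Slc39a9 shares 459 bases with Erh on the other strand. Slc39a2, a plasma membrane ZIP, was scarce: wild type gave 3 and 14 counts, and knockout 31 and 60. The knockout libraries were the higher ones, and the libraries of each group also differed from each other, by 5.57-fold in wild type and 1.98-fold in knockout. Its log2 fold change was 2.42 (SE 0.89, edgeR adjusted p = 0.584) and 4.06 without wild type 2. Slc39a2 overlaps Mettl17 by 151 bases on the same strand.

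**Figure D3:**
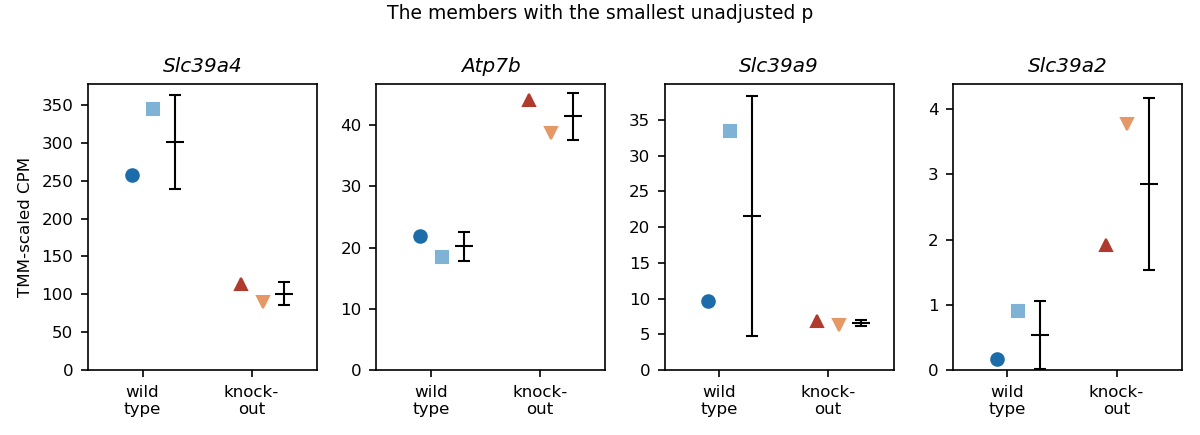
TMM-scaled CPM, from 0 on a linear axis, of the 4 members with the smallest unadjusted p in each library (points) with the group mean and SD to the right (n = 2 a group). Slc39a4 and Atp7b keep their animals close together within each group, whereas wild type 2 lies 3.46-fold above wild type 1 for Slc39a9, and Slc39a2 stays at 3.78 CPM or less.

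Several of the other ZIP genes differed between the wild type animals. Slc39a1, a broadly expressed plasma membrane ZIP, had 114 and 89.5 CPM in wild type and 108 and 78 CPM in knockout. Slc39a5, which takes up zinc at the basolateral membrane of gut and pancreas and is also a liver transcript, had 38.8 and 178 CPM in wild type and 120 and 80 CPM in knockout, so the wild type animals enclosed the knockout animals. Slc39a7, which releases zinc from the endoplasmic reticulum, showed the same layout, with 43.2 and 109 against 74 and 59.9 CPM. Both counts are uncertain. Slc39a5 lies wholly within Ankrd52 on the opposite strand, which counted 752 and 200 in wild type against 741 and 478 in knockout, and Slc39a7 shares its span with the same-strand transcript Gm20427.

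Slc39a10 and Slc39a6, a closely related pair of plasma membrane ZIPs, were low. Slc39a10 had 18.5 and 6.89 CPM in wild type and 15.5 and 16.8 CPM in knockout, with wild type 2 alone low. Slc39a6 had 9.26 and 6.69 against 8.02 and 5.99 CPM. Slc39a3, which takes up zinc at the cell surface, was lower in both knockout libraries by a small amount (19.9 and 17 against 15.4 and 12.8 CPM, log2 fold change -0.39, edgeR adjusted p = 0.763). Slc39a11, and Slc39a13 of intracellular membranes, had log2 fold changes of 0.11 and 0.20 with overlapping groups. In all, the log2 fold change was above 0 for 4 of the 11 tested ZIP genes and below 0 for 7, with a median of -0.13.

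No zinc exporter passed the test. The log2 fold change was above 0 for 4 of 8 tested ZnT genes and below 0 for the other 4 (median -0.09), and 0 passed. Slc30a9, linked to zinc export from mitochondria, had 77.2 and 87.7 CPM in wild type and 108 and 106 CPM in knockout, and was the only tested ZnT gene whose knockout libraries both exceeded the wild type ones (log2 fold change 0.38, SE 0.28, edgeR adjusted p = 0.717). Slc30a1, the plasma membrane exporter, had 30 and 33.7 against 24.4 and 26 CPM, and Slc30a6 had 20.1 and 18.5 against 15.3 and 14.8 CPM. Each of these was lower in both knockout libraries, at log2 fold changes of -0.34 (95% interval -1.05 to 0.38) and -0.36 (95% interval -1.15 to 0.43).

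Slc30a5, which pairs with Slc30a6 to load zinc into secreted enzymes, and Slc30a7, which does so in the Golgi on its own, overlapped between the groups. Slc30a5 had 54 and 43.3 against 49.5 and 50.4 CPM, and Slc30a7 had 52.3 and 28.9 against 39.1 and 46.5 CPM. Alpl, the tissue-nonspecific alkaline phosphatase that these exporters supply with zinc, stood at 134 and 115 CPM in wild type against 75.8 and 77 CPM in knockout (fitted log2 fold change -0.71, SE 0.29, edgeR adjusted p = 0.597). Slc30a2 and Slc30a3, known from secretory vesicles of the mammary gland and from synaptic vesicles, stayed at or below 1.36 CPM. Slc30a3 had 13 counts in each wild type library and 5 and 7 in the knockout (log2 fold change -1.03, edgeR adjusted p = 0.703).

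The untested members were close to the floor of 3 counts per library, which equals 0.163 to 0.195 CPM. Slc30a8, the zinc transporter of insulin granules, had 1 count in 1 library. Slc30a4, another vesicle exporter, counted 0 in each wild type animal, against 6 and 4 in the knockout animals. Slc39a12, a brain ZIP, had 4 and 2 counts in wild type against 2 and 0 in knockout. None of these was measured well enough to compare.

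The metallothioneins had the highest mean levels per kilobase of joined exons among the members, though in wild type 1 Atox1 was above both. For Mt1 the joined exons fill its whole annotated span, so its place depends on that length. Both metallothioneins differed far more between animals than between groups. Mt1 and Mt2 encode small cysteine-rich proteins that bind zinc and copper, and they lie next to each other on chromosome 8 with 5513 bases between them (Mt2 at 94172664 to 94173568 and Mt1 at 94179082 to 94180327, mm10). Mt1 had 2233 and 20174 counts in wild type animals 1 and 2, and 12356 and 9174 counts in knockout animals 1 and 2. Mt2 had 1060 and 11103 against 6121 and 4741 counts. For each gene wild type 1 was the lowest library, wild type 2 the highest, and the knockout animals fell between them.

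After scaling, wild type 2 was 10.8-fold above wild type 1 for Mt1 and 12.5-fold for Mt2, while the knockout animals were 1.32-fold and 1.26-fold apart. Wild type libraries at least 8-fold apart were seen for 3 members (Mt1, Mt2 and Atp7a) and for 2.83% of all tested genes. The group means could not be told apart. Mt1 had 716 ± 841 against 670 ± 130 CPM (SD, n = 2 each; log2 fold change -0.10, 95% interval -2.28 to 2.09, edgeR adjusted p = 0.98), and Mt2 had 390 ± 469 against 338 ± 55.5 CPM. The direction hung on the wild type animals: without wild type 1 the log2 fold changes were -1.0 and -1.13, and without wild type 2 they were 2.46 and 2.55, with an edgeR adjusted p for Mt2 of 0.0386.

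The pair kept a nearly fixed proportion. Mt1 had 2.11 and 1.82 times the counts of Mt2 in the wild type animals and 2.02 and 1.94 times in the knockout animals. The antisense transcript Gm45774, which shares 749 bases with Mt2, counted 410 and 4489 in wild type against 2271 and 2301 in knockout, or 0.371 to 0.485 of the Mt2 count in each library. No source used here states whether counting used strand, and reads of Mt2 and Gm45774 cannot be told apart.

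The promoters of Mt1, Mt2 and Slc30a1 are shown because MTF1 is known to act on all of them through the metal response element, while Mt1 and Mt2 varied together over the libraries and Slc30a1 did not vary with them. The RefSeq windows (GRCm38.p6, 250 bases before to 50 after the annotated start) are written 5′ to 3′ on the strand of the gene, with matches to the element's core, TGCACNC or TGCGCNC on either strand, in capitals. Mt1 lies at chr8:94178839-94179138, Mt2 at chr8:94172368-94172667 and Slc30a1 at chr1:191906531-191906830, all on the plus strand.
Mt1: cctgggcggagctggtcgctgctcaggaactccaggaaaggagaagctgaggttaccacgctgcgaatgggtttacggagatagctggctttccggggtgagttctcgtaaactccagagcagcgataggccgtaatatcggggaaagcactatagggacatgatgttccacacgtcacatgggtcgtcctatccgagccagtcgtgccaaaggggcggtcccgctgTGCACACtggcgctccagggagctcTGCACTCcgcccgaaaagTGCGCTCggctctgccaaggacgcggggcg
Mt2: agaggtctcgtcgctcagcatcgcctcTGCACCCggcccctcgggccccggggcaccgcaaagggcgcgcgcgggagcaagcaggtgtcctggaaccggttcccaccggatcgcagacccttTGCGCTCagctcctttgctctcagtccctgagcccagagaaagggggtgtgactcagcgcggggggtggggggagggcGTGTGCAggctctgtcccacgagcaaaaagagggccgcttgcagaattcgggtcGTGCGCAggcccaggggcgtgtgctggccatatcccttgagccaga
Slc30a1: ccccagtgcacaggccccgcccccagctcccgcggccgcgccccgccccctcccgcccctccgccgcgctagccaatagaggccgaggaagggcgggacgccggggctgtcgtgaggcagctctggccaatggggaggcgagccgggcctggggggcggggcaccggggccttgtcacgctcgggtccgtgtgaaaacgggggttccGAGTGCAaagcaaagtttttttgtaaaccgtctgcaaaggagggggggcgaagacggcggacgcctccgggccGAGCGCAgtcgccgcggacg
The windows held 3, 4 and 2 matches. Those of Mt1 began at -23, 3 and 21 relative to the annotated start, close to the end of its window. Matches outside the windows, or around any other start of these genes, were not counted. At least 3 matches were found in 1.97%, at least 4 in 0.517% and at least 2 in 7.11% of the 32851 RefSeq mouse promoters of this length, and at least 1 in 25.7%. Of the 28 members with a promoter in the table, 15 had a window with a match, Slc30a10 and Slc30a4 with 3 each among them. A match describes the letters and does not show binding.

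Mt1 and Mt2 differed by over 10-fold between the wild type animals, whereas Slc30a1, with matches in the same window, was 1.12-fold apart in them. Mtf1, the zinc sensor itself, had 22.2 and 11.8 CPM in wild type and 21.8 and 20.9 CPM in knockout, so the library with the most metallothionein had the least Mtf1. Slc39a10, which MTF1 is known to repress in mouse and zebrafish, was also lowest in that library, as were 8 of the 30 members and 34.7% of all tested genes. The Mtf1 log2 fold change stood at 0.33 (95% interval -0.63 to 1.29, edgeR adjusted p = 0.834).

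Metallothionein levels had the same library order as Alb, and wild type 1 was also the lowest library for most hepatocyte markers and acute phase genes. From lowest to highest, Mt1, Mt2, Slc39a5 and Slc39a7 had the library order wild type 1, knockout 2, knockout 1, wild type 2, which was also the order of Alb. This order was noticed after the values were seen; 4 of 30 members and 5.1% of all tested genes had it. Of 12 hepatocyte markers, 3 had exactly this order (Alb, Fgb and Ahsg), and Apoa1, Apoc3 and Serpina1a differed from it only in the order of the knockout libraries. Of 15 acute phase genes 8 had it (Saa1, Saa3, Lcn2, Orm1, Orm2, Fgb, Itih4 and Apcs), and Hp and Itih3 differed in the same way. Wild type 1 was the lowest library for all these hepatocyte markers but Hnf4a. The same held for all these acute phase genes but Socs3, Hamp and Fgg, and for 22.4% of all tested genes. The hepatocyte markers summed to 15983 and 51508 CPM in wild type and 39703 and 36491 CPM in knockout, and 9 of 12 had a positive log2 fold change. The acute phase genes summed to 10686 and 25117 against 16483 and 16124 CPM. Glucocorticoids also induce metallothioneins, and 10 of their targets summed to 719 and 1120 against 880 and 1522 CPM, with knockout 2 as the highest library. These targets went different ways. Tat (82.5 and 248 against 198 and 341 CPM) and Pck1 (12 and 238 against 83 and 415 CPM) were lowest in wild type 1. Klf9 (80 and 50 against 99.4 and 90.9 CPM) and Zbtb16 (50.3 and 15.5 against 60.9 and 53.8 CPM) were lowest in wild type 2. The part of these gene lists in the metallothionein values was not tested.

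**Figure D4:**
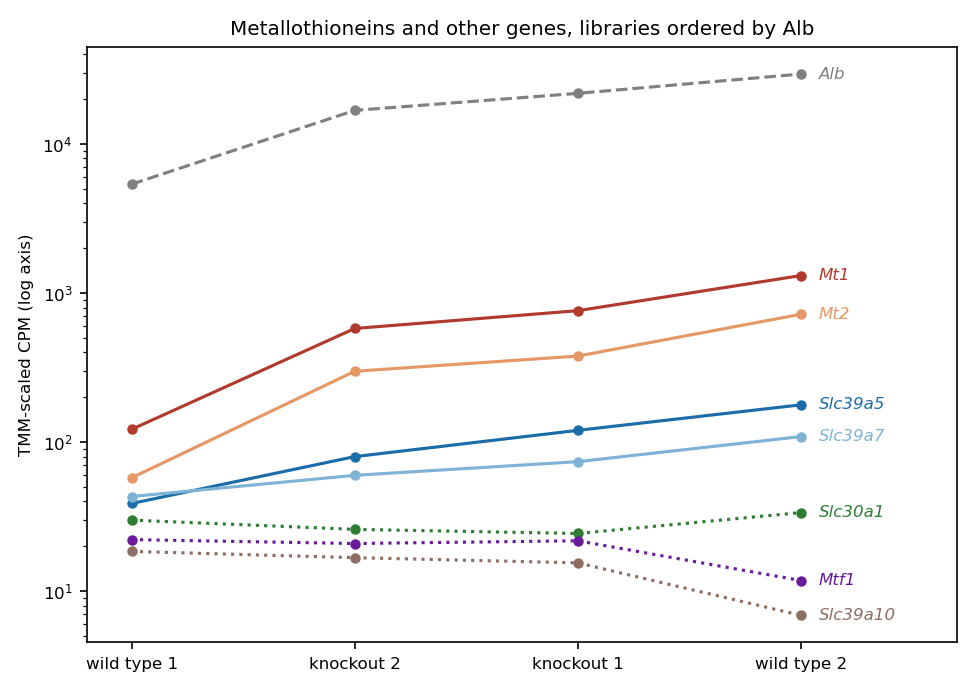
TMM-scaled CPM on a log axis for Mt1, Mt2, Slc39a5 and Slc39a7 (solid lines), Alb (dashed) and Slc30a1, Mtf1 and Slc39a10 (dotted), with the 4 libraries placed by their Alb level. The solid lines are the members that share the library order of Alb, noticed after the values were seen, so their climb follows from that choice. Mt1 goes from 122 CPM in wild type 1 to 1311 CPM in wild type 2. Slc30a1 stays between 24.4 and 33.7 CPM, and Mtf1 and Slc39a10 are lowest in wild type 2.

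Copper genes had 1 member with clear separation, the hepatocyte copper pump Atp7b. Loss of Atp7b causes Wilson disease in humans, in which copper collects in the liver. The gene (ENSMUSG00000006567, chromosome 8, 21992785 to 22060305, mm10) gave 402 and 285 counts in wild type against 715 and 613 in knockout. Both knockout libraries were high, and the animals of each group lay within 1.18-fold of each other after scaling. The means were 20.2 ± 2.39 and 41.4 ± 3.85 CPM (SD, n = 2 each), a 2.05-fold higher fitted level in the knockout (log2 fold change 1.03, SE 0.31, 95% interval 0.30 to 1.76). It did not pass (edgeR adjusted p = 0.547, DESeq2 0.241, limma-voom 0.565). Its log2 fold change lay between 0.91 and 1.13 without any 1 library. Of the 12 hepatocyte markers, 9 had a positive log2 fold change (median 0.12). That median was -0.25 without wild type 1 and 0.89 without wild type 2. Ass1, an enzyme of the urea cycle, was the only 1 of them higher in both knockout libraries (205 and 340 against 465 and 459 CPM). The summed level of the hepatocyte markers overlapped between the groups, and their part in the Atp7b values was not tested.

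Atp7a, the pump that other tissues use and that is mutated in Menkes disease, was scarce and uneven. Wild type gave 126 and 0 counts, and knockout 64 and 22. Wild type 1 was thus at least 35.2-fold above wild type 2 against a floor of 3 counts, and the groups overlapped. Its fitted log2 fold change of -0.37 had a 95% interval of -3.94 to 3.20, and it was positive by limma-voom (2.16), so no direction can be given.

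Among the genes of copper import and the chaperones, the groups overlapped throughout. Slc31a1, the main copper importer, stood at 133 and 111 CPM in wild type against 145 and 119 CPM in knockout (fitted log2 fold change 0.12, 95% interval -0.60 to 0.84). Slc31a2, its low-affinity relative on the same chromosome, had 8.55 and 17.6 against 10.6 and 13.9 CPM. Atox1, which carries copper to the Atp7 pumps, had 146 and 235 against 163 and 178 CPM. Ccs, which loads copper into superoxide dismutase 1, had 79.2 and 120 against 70.3 and 83.4 CPM. Wild type 2 was the highest library for Slc31a2, Atox1 and Ccs, which were 2.06-fold, 1.62-fold and 1.52-fold apart between the wild type animals.

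The ferroxidases did not differ detectably. Cp, the copper protein that oxidises iron in plasma, gave 14735 and 15987 counts in wild type against 19425 and 12615 in knockout. The knockout animals enclosed the wild type animals, and the fitted log2 difference was 0.11 (95% interval -0.91 to 1.14, SE 0.43, edgeR adjusted p = 0.954). Heph, the membrane-bound relative of ceruloplasmin in the gut, had 13 and 10 counts against 4 and 20, so no direction can be given. The same-strand pseudogene Rpl17-ps8, with 1085 to 1595 counts per library, lies within the span of Heph.

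Slc30a10, which exports manganese from hepatocytes into bile, was lower in both knockout libraries, though knockout 1 was nearly level with the wild type animals. Its level was 15.6 and 15.5 CPM in wild type against 15.4 and 11.8 CPM in knockout (fitted log2 fold change -0.20, 95% interval -1.04 to 0.65, edgeR adjusted p = 0.887). In the wider manganese list of 11 genes, 6 lay above 0 and 5 below 0 on the log2 fold change scale (median 0.11), and 0 passed. Arg1, the manganese enzyme that ends the urea cycle, had 587 and 555 against 935 and 786 CPM. Slc11a2, the divalent metal transporter DMT1, had 137 and 120 against 100 and 73.5 CPM. For these genes the groups did not overlap, with edgeR adjusted p values of 0.678 and 0.648.

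Levels between members were compared as CPM per kilobase of all annotated exons joined. Averaged over the 4 libraries, Mt2 and Mt1 had 619 ± 467 and 556 ± 395 CPM per kb (SD, n = 4). Within each library Mt2 lay above Mt1. The values were 98.2 and 1227 against 97.6 and 1052 in wild type, and 642 and 509 against 612 and 464 in knockout. The joined exons of Mt1 came to 1246 bases, its whole annotated span, against 588 bases for Mt2. The order of Mt1 against Mt2 and Atox1 therefore depends on that length. Atox1 followed at 334 ± 71.9 by this mean, although in wild type 1 it was the highest member, at 269 CPM per kb. Cp had 100 ± 20.4 CPM per kb. Slc39a4 had 82.7 and 111 CPM per kb in wild type but 36.2 and 29.1 in knockout, where it lay below Ccs, Slc39a5 and Slc39a1 in both libraries. Over the 4 libraries, Ccs (49.6 ± 12.4), Slc39a5 (46.8 ± 26.6) and Slc39a1 (41.2 ± 7.05) were not separable from each other, and Slc31a1 (29.7 ± 3.54) and Slc39a7 (27.7 ± 10.8) came next. The best expressed ZnT gene by this mean, Slc30a9, had 7.67 ± 1.21 CPM per kb, and Atp7b had 4.73 ± 1.92.

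Other genes of copper and zinc use showed no call either. The 10 genes that deliver copper to cytochrome c oxidase lay above 0 on the log2 fold change scale for 7 and below for 3 (median 0.13). Among them Cox19 had 70.9 and 123 against 57.1 and 66.8 CPM and Coa6 25.5 and 33.4 against 36 and 44.2 CPM. Of 11 tested secreted and cytosolic copper enzymes, 5 were positive and 6 negative (median -0.42). Loxl2 and Loxl3, copper-dependent lysyl oxidases that cross-link collagen, had the smallest p in that list.

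Loxl2 stood at 35.2 and 41.2 CPM in wild type against 17.1 and 6.56 CPM in knockout (fitted log2 fold change -1.69, SE 0.49, edgeR adjusted p = 0.547). Loxl3 had 9.64 and 8.64 against 3.33 and 5.42 CPM. Fibroblasts are a main source of lysyl oxidases, and markers of stellate cells and fibroblasts, 8 of 10 with a negative log2 fold change, summed to 1461 and 1266 CPM in wild type and 654 and 1195 CPM in knockout, with none at 0 in every library. Their part in the Loxl2 and Loxl3 values was not tested. Sod1, the copper and zinc superoxide dismutase that Ccs supplies, had 442 and 679 against 473 and 650 CPM.

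In the list of copper regulators 4 of 10 were positive (median -0.08), with Memo1 at 82 and 57.4 against 37.9 and 56.2 CPM. Among 8 tested further zinc genes 6 were positive (median 0.27). Gclc, which makes glutathione precursor and is a known MTF1 target in mouse, stood at 203 and 204 CPM in wild type against 299 and 331 CPM in knockout (fitted log2 fold change 0.63, SE 0.31, edgeR adjusted p = 0.633), and Gpr39, a zinc-sensing receptor, had 7.95 and 21.2 against 4.56 and 8.51 CPM. Zinc enzymes of the liver had 7 of 14 positive (median -0.03). In this list Car5a, the mitochondrial carbonic anhydrase of hepatocytes, had 3.81 and 4.22 against 7.77 and 8.2 CPM.

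Markers of other cells that could hold these transcripts also moved between the groups. Macrophage and Kupffer cell markers, 12 of 12 with a negative log2 fold change (median -1.47), summed to 1082 and 1391 CPM in wild type and 652 and 362 CPM in knockout. Endothelial markers, 8 of 10 negative, summed to 175 and 210 against 128 and 101 CPM, and neutrophil markers, 6 of 6 tested negative, to 25.2 and 68.7 against 14 and 14.8 CPM with Ly6g at 0 counts throughout. Erythroid markers, 5 of 5 tested negative, summed to 957 and 2172 against 212 and 150 CPM. Bile duct markers, 3 of 6 tested positive, summed to 434 and 994 against 1097 and 1155 CPM. Most of that sum was Spp1 alone (376 and 923 against 1030 and 1064 CPM). Pancreatic acinar markers summed to 19.9 and 47.2 against 7.09 and 14.6 CPM, nearly all from Cela1, with Cpb1, Prss2, Try4 and Try5 at 0, and islet markers stayed at or below 1.31 CPM with Ins2, Iapp and Pdx1 at 0. Slc39a4 and Slc39a9 were lower alongside the immune, endothelial and erythroid lists, and the part of those cells in the values was not tested.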

How the data were processed

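Messenger RNA was sequenced from bulk tumour tissue of 4 mice, 2 labelled wild type and 2 knockout, each a separate animal per the series' design text. The authors deposited raw counts and FPKM for each gene. HISAT2, SAMtools 1.3.1, StringTie, edgeR and mm10 appear in the submitters' processing notes with no stated role. Strand settings are not given in the sources used here. The deposited FPKM implied gene lengths of 1 to 2.79 times the joined exons of GENCODE M21 (median 1.43, over 30 members with at least 10 counts in a library), so levels were compared as CPM per kilobase of joined exons. Gene symbols came from GENCODE M21, which matched 55227 of 55487 identifiers.

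Counts were filtered with filterByExpr (16310 genes left), scaled by TMM and compared by a two-sided quasi-likelihood F test in edgeR 4.0.16 under R 4.3.3. Adjusted p-values follow Benjamini and Hochberg across the tested genes, with calls made under 0.05. CPM means and SDs are TMM-scaled. The smallest two-sided p from exact permutation of 2 against 2 is 0.333. Floors of 3 counts cover counting error only. Alternatives were DESeq2's size factors, library totals, scaling without mitochondrial genes, no filter, a mean of at least 5 CPM, DESeq2 1.42.0, limma-voom (limma 3.58.1), a replicate block and leaving out each library in turn. On data simulated for this comparison over 16310 genes, the test found 0 of 50 genes with a 2-fold change and 13 of 50 with a 4-fold change. It found 35 of 50 with an 8-fold and 44 of 50 with a 16-fold change, and made 10 false calls in the same run. The members and gene lists were chosen with earlier results of these data known. All members are accounted for, and from other lists up to 2 genes with the smallest p and up to 2 with the highest level were named. Outside that rule, further list genes were named for their library order or for having 0 counts, and Lgr5 after its values were seen. Promoters came from RefSeq (GRCm38.p6).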

Additional observations from a re-analysis of the deposited data

How the results depend on the processing

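Of 30 tested members, 11 kept their direction under each of the 12 alternatives that gave them a value: Atp7b, Ccs, Slc30a1, Slc30a3, Slc30a6, Slc30a9, Slc30a10, Slc39a2, Slc39a3, Slc39a4 and Slc39a9. DESeq2 called 63 genes higher and 85 lower, with 1 member lower. Library totals and limma-voom each called 1 gene lower. Without single libraries, 0 to 209 genes were called higher and 0 to 200 lower, with 0 to 1 members higher (Mt2, without wild type 2) and 0 to 2 lower (Slc39a4 and Slc39a9, without wild type 1). The replicate block called 2 genes higher and 2 lower and 0 members. Replicates of 1 number share only that number (correlation of their deviations 0.121), and the block changed no member's call. Under the block the log2 fold change was 1.03 for Atp7a, -0.15 for Heph, 0.73 for Mt1, 0.72 for Mt2 and 0.23 for Slc39a5. By limma-voom it was 2.16 for Atp7a, -0.25 for Heph, 0.70 for Mt1, 0.69 for Mt2, 0.00534 for Slc31a2 and 0.23 for Slc39a5. With library totals it was 0.0164 for Mt1, -0.0436 for Slc30a2 and -0.00586 for Slc30a5, and with no filter -0.0151 for Slc30a2 and -0.00439 for Slc30a5. Without single libraries the log2 fold change ran from -0.50 to 0.23 for Atox1, -1.36 to 8.39 for Atp7a, -0.24 to 0.38 for Cp, -1.43 to 0.86 for Heph, -1.0 to 2.46 for Mt1, -1.13 to 2.55 for Mt2, -0.0573 to 0.82 for Mtf1, -0.40 to 0.62 for Slc30a2, -0.11 to 0.17 for Slc30a5 and -0.29 to 0.53 for Slc30a7. It ran from -0.0609 to 0.25 for Slc31a1, -0.56 to 0.52 for Slc31a2, -0.41 to 0.0912 for Slc39a1, -0.20 to 1.19 for Slc39a10, -0.27 to 0.39 for Slc39a11, -0.0468 to 0.45 for Slc39a13, -0.87 to 1.36 for Slc39a5, -0.44 to 0.0295 for Slc39a6, -0.74 to 0.63 for Slc39a7 and -0.79 to 0.16 for Tfrc. The cause of these moves was not tested. A lone library was taken to vary as the other group does. At a mean of 5 CPM, 25 members were tested. Low counts limit Slc39a2, Slc30a2, Slc30a3, Heph and Atp7a.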
